A study of Mus musculus with 5 samples.

Results

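DNA pulled down with an antibody to 5-hydroxymethylcytosine (5hmC), a method called hMeDIP-seq, was compared with unselected input DNA to describe where 5hmC was high and low along the autosomes of mouse embryonic stem (ES) cells. These 2 libraries, of 5 in the study, were chosen by name. Each aligned read was assigned by its midpoint to bins of chromosomes 1 to 19, which gave 2472334 bins of 1 kb, 247241 bins of 10 kb and 24731 bins of 100 kb. All positions are in the mouse build mm9, and no gene models of that build were used here, so bins are named by position only.

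The study profiled 5-methylcytosine (5mC) and 5hmC in ES cells grown in fetal calf serum with leukaemia inhibitory factor and no feeder cells. For hMeDIP, sonicated genomic DNA received adapters, was denatured to single strands and was incubated with 2 µg of a 5hmC antibody from Active Motif. This DNA came from E14 clones of the SIGTR gene-trap collection. The input was chromatin DNA without antibody from TNG-A cells, an E14 derivative with an EGFP reporter at the Nanog locus. Input and pulldown thus differed in line and in preparation as well as in the antibody, and these cannot be told apart from the antibody's effect. The other 3 libraries are used below only as values beside those of hMeDIP: MeDIP, prepared in the same way with a 5mC antibody, and MethylCap eluates at 600 and 800 mM NaCl, in which an MBD protein fused to GST captured DNA fragments. No library was a mock pulldown, and the marker genes that identify ES cells cannot be read from DNA libraries.

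5hmC is made from 5mC by the Tet dioxygenases, which oxidise the methyl group, and it is an intermediate on a route back to unmodified cytosine. ES cells express Tet enzymes and carry more 5hmC than most dividing cells. An antibody to the modified base enriches fragments that carry it, so the readout is relative along the genome and not a share of modified cytosines. How recovery depends on the density of the base was not measured here.

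The hMeDIP library held 18563204 reads, of which 18154810 lay on chromosomes 1 to 19, and the input held 18722723 reads, of which 16332177 were used. The input was restricted because 8.38% of its reads carried a 1 in a file column that holds 0 for each hMeDIP read, and what that column means is not given in any source used here. Counts were scaled to RPM, the reads per 1000000 reads on these chromosomes, and the ratio of a bin was (RPM + 0.5)/(input RPM + 0.5). Bins were tested where input held at least 3 reads per kb, which left 2029423 bins of 1 kb, 224696 of 10 kb and 23318 of 100 kb. The median tested bin held 7 input and 5 hMeDIP reads at 1 kb, 69 and 62 at 10 kb, and 672 and 640 at 100 kb. Intervals are exact 95% Clopper-Pearson intervals of the raw read ratio, without the added 0.5 RPM, which pulls the ratio of thinly covered 1 kb bins towards 1. The reads carry no molecular identifiers and may descend from shared molecules, so each interval covers the counting error alone. With 1 library per side no difference has a replicate check, and no p-value is given.

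The hMeDIP signal was spread unevenly, with most tested bins below the input level and a smaller share well above it. At 100 kb the median ratio was 0.832, the 5th percentile was 0.397 and the 95th was 2.18. Only 39.4% of tested 100 kb bins were above input. The SD of the log2 ratio was 0.78 at 100 kb, 0.88 at 10 kb and 0.69 at 1 kb, where the added 0.5 RPM narrows it. The medians at 10 kb and 1 kb were 0.828 and 0.825, so a typical bin sat below 1 at every bin size. MeDIP followed nearly the same broad pattern. Over classes of 100 kb bins, from under 0.35-fold to 3-fold or more in hMeDIP, the median MeDIP ratio rose from 0.304 to 3.53. Scaled hMeDIP reads over MeDIP reads stood between 0.966 and 1.06 in these classes. High and low levels at this scale were thus largely shared by both antibodies, and both ratios use the same input.

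**Figure D1:**
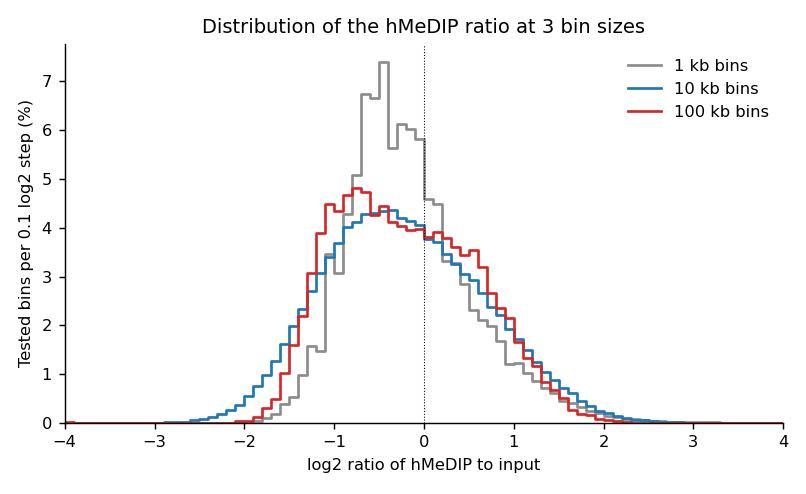
Share of tested bins (%) in steps of 0.1 of the log2 ratio of hMeDIP to input, for bins of 1 kb, 10 kb and 100 kb in 1 hMeDIP and 1 input library. The dotted line marks the input level. All 3 curves peak below 0, with medians of 0.825, 0.828 and 0.832 on the linear scale, and have a tail of high bins to the right.

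At 100 kb, a bin was called high at 2-fold or more and low at 0.5-fold or less. High bins numbered 1618, or 6.94% of those tested, and held 15.4% of hMeDIP reads against 6.198% of input reads. Low bins numbered 4024, or 17.3%, and held 7.05% of hMeDIP reads against 16.99% of input reads. At 10 kb, 21077 bins (9.38%) were high and 44480 (19.8%) were low by the same thresholds. The high 10 kb bins held 22.9% of hMeDIP and 7.87% of input reads. In each called bin the interval of the raw ratio lay beyond 1. The thresholds and the input minimum fixed this in advance, so it adds no support to the calls.

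Low bins thus outnumbered high bins, but that order depends on where the zero is set. With the median bin set to 1 in place of the total, 3057 bins of 100 kb were high and 1577 were low, at 10 kb 34201 were high and 25359 low, and at 1 kb, with the thresholds given below, 70367 and 1009. The ranking of bins does not depend on that choice. The column that was used to restrict the input also differed between them, as it marked 9.55% of input reads in high 100 kb bins and 7.95% in low ones. With all input reads used, 1568 bins of 100 kb were high and 3982 low.

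At 1 kb the thresholds were 3-fold or more and 0.333-fold or less. High bins numbered 36996 (1.82%), and held 10.9% of hMeDIP reads in bins with 1.31% of input reads. A bin with the median 7 input reads needed 42 hMeDIP reads for this call. Low bins numbered 7536 (0.371%), but at this size a low call needs at least 17 input reads even without any hMeDIP read, which 2.99% of tested bins had. Absence of 5hmC from most 1 kb bins was therefore not detectable at this depth.

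High and low signal came in blocks. The 1618 high 100 kb bins formed 772 runs of adjacent bins, of which 448 were 1 bin long and 57 held 5 bins or more. The longest high run spanned 37 bins of distal chromosome 4, chr4:150500001-154200000. It held 63241 hMeDIP reads against 19503 input reads, a raw ratio of 2.92 (interval 2.87 to 2.96), and its bins ranged from 2.02-fold to 4.23-fold. The antibody to 5mC gave 3.28-fold and the 600 mM eluate 4.09-fold over the same run. The stretch was thus high in each enriched library, and hMeDIP stood at 0.888 of MeDIP when these were compared directly (0.877 to 0.8996).

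The next high runs were on chromosomes 5 and 8. A run of 34 bins at chr5:111800001-115200000 held 69422 hMeDIP and 20494 input reads (3.05-fold, 3.0002 to 3.095), and one of 26 bins at chr8:121700001-124300000 held 48819 and 14614 reads (3.01-fold, 2.95 to 3.06). The 5 longest were completed by 18 bins at chr5:117200001-119000000 (2.55-fold) and 17 bins at chr4:139000001-140700000 (3.21-fold). MeDIP over these 4 runs was 2.60-fold to 3.18-fold. Input was thin in all 5, at a median of 501 to 615.5 reads per bin where the median tested bin had 672.

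Low bins formed the longest runs at these thresholds. With the median bin set to 1 the longest high run had 50 bins and the longest low run 38, so this order turned, and with at least 5 input reads per kb the longest high run shrank from 37 to 12 bins while the longest low run kept its 99. The 4024 low bins formed 1514 runs, of which 791 were 1 bin long, 199 held 5 or more and 49 held 10 or more. The longest covered 9.9 Mb at chr14:88900001-98800000, where 99 adjacent bins were all low, from 0.238-fold to 0.491-fold. It held 33239 hMeDIP against 85546 input reads (0.3495-fold, 0.345 to 0.354). Input was dense there, with a median of 867 reads per bin. MeDIP was lower still at 0.315-fold and the 600 mM eluate at 0.175-fold, so that hMeDIP was 1.11 of MeDIP (1.09 to 1.13).

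A second block on the same chromosome, 81 bins at chr14:106800001-114900000, held 23959 hMeDIP against 65141 input reads (0.331-fold, 0.326 to 0.336). The 3 that followed were chr1:109900001-113300000 at 0.404-fold, which includes 1 of the near-empty bins described below, chr5:82600001-86000000 at 0.394-fold and chr1:148800001-151300000 at 0.399-fold. In all 5 low runs the order was the same, with hMeDIP above MeDIP (0.310-fold to 0.348-fold) and MeDIP above the 600 mM eluate (0.154-fold to 0.186-fold). These libraries share 1 input, so their ratios are not independent of each other.

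**Figure D2:**
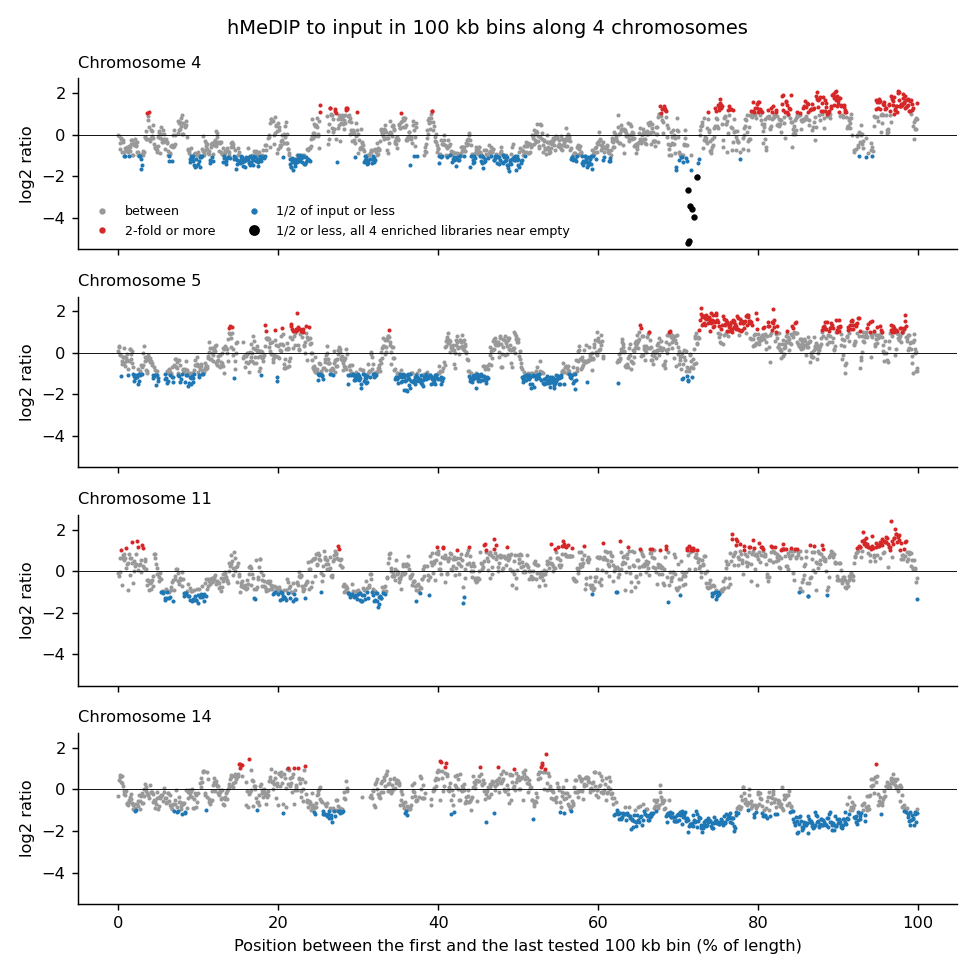
Log2 ratio of hMeDIP to input in tested 100 kb bins along chromosomes 4, 5, 11 and 14, drawn by position as a percentage of the length between the first and last tested bin, with high bins in red and low bins in blue. High bins crowd the last part of chromosomes 4, 5 and 11, whereas chromosome 14 has long low stretches in its second part, and the black points on chromosome 4 are bins with hardly any read in all 4 enriched libraries.

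The highest 100 kb bins lay on 8 chromosomes. First was chr11:117900001-118000000, with 2927 hMeDIP against 488 input reads (5.32-fold, 4.90 to 5.95). It was followed by chr7:25700001-25800000 with 2835 against 522 reads (4.83-fold) and chr2:164900001-165000000 with 2399 against 458 (4.65-fold). The 10 highest reached down to 4.32-fold, at chr8:123400001-123500000 with 2155 against 443 reads. They held 1688 to 2927 hMeDIP reads, well above the median bin, and 338 to 564 input reads, below it. Of these 10, 6 had fewer than 5 input reads per kb, so 4 were still among the 10 highest when at least that many were asked for.

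MeDIP was also high in these 10 bins, at 2.47-fold to 4.99-fold. The bin in which the antibodies differed most was chr17:56600001-56700000, with 2779 hMeDIP against 543 input reads (4.55-fold), where MeDIP was 2.47-fold and the 600 mM eluate 2.54-fold. Set directly against MeDIP, hMeDIP was 1.85-fold there (1.71 to 2.00). The highest bin of each chromosome ranged from 2.71-fold on chromosome 6 to 5.32-fold on chromosome 11, so each autosome had at least 1 bin above 2.5-fold.

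The lowest values of all came from bins that were near-empty in every enriched library. At chr4:111800001-111900000 there were 3 hMeDIP reads against 396 input reads (0.0269-fold), and the next bin held 4 against 398. MeDIP held 3 and 2 reads there, the 600 mM eluate 1 and 0, and the 800 mM eluate 1 and 0. Such near-empty bins, in which the 4 enriched libraries together were under 0.15 of input, numbered 9, with 7 between 111700001 and 113600000 on chromosome 4 and 1 each on chromosomes 13 and 1. Because all 4 enriched libraries come from the gene-trap clones and input does not, these bins, 9 of the 4024 low ones, are not given as low in 5hmC. Copy number in the lines was not measured. The cut at 0.15 falls in no clear gap, as the highest near-empty bin stood at 0.136 and the next bin at 0.152. The near-empty bin chr4:113500001-113600000 held 84 hMeDIP against 337 input reads (0.243-fold), a ratio above that of some bins kept as low.

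Without these 9, the lowest 100 kb bin was chr13:62000001-62100000, next to a near-empty bin, with 46 against 318 reads (0.152-fold). Then came chr14:107500001-107600000 with 183 against 737 reads (0.232-fold, 0.189 to 0.263) and chr14:109200001-109300000 with 245 against 961 (0.236-fold). Of the 10 lowest, 6 were on chromosome 14. Also among them were chr4:113300001-113400000 and chr4:113400001-113500000, which lay within the stretch of near-empty bins on chromosome 4. Outside the near-empty bins, the lowest bin per chromosome lay between 0.152-fold on chromosome 13 and 0.361-fold on chromosome 19.

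Whole chromosomes differed by less than blocks within them. The hMeDIP signal was highest on chromosome 11 (1154017 against 880327 reads, 1.18-fold, 1.176 to 1.183) and on chromosome 5 (1.15-fold). It was lowest on chromosome 14 (751696 against 836926 reads, 0.808-fold, 0.805 to 0.811) and on chromosome 3 (0.827-fold). In all, 9 autosomes were above input and 10 below, and each was on the same side in MeDIP. Chromosome 10, at 0.994-fold, moved to 1.01-fold when all input reads were used.

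High 100 kb bins made up 13.9% of chromosome 5 and 13.2% of chromosome 4, but 1.03% of chromosome 3. Low bins were commonest on chromosome 14 (28.8%) and rarest on chromosome 19 (4.36%). The shares were not mirror images: chromosomes 4 and 5 had many high bins and also 19.2% and 20.1% low ones. The 5 chromosomes richest in high bins (5, 4, 11, 17 and 15) had 45.1% of them in 25.6% of tested bins. Median input per 10 kb bin was 63 to 73 reads over the autosomes, a narrower range than that of the ratios. The most, 73, was on chromosome 14, which had the lowest ratio, and the least, 63, on chromosome 7, at 1.13-fold. Whether input coverage has a share in the chromosome ratios was not tested.

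**Figure D3:**
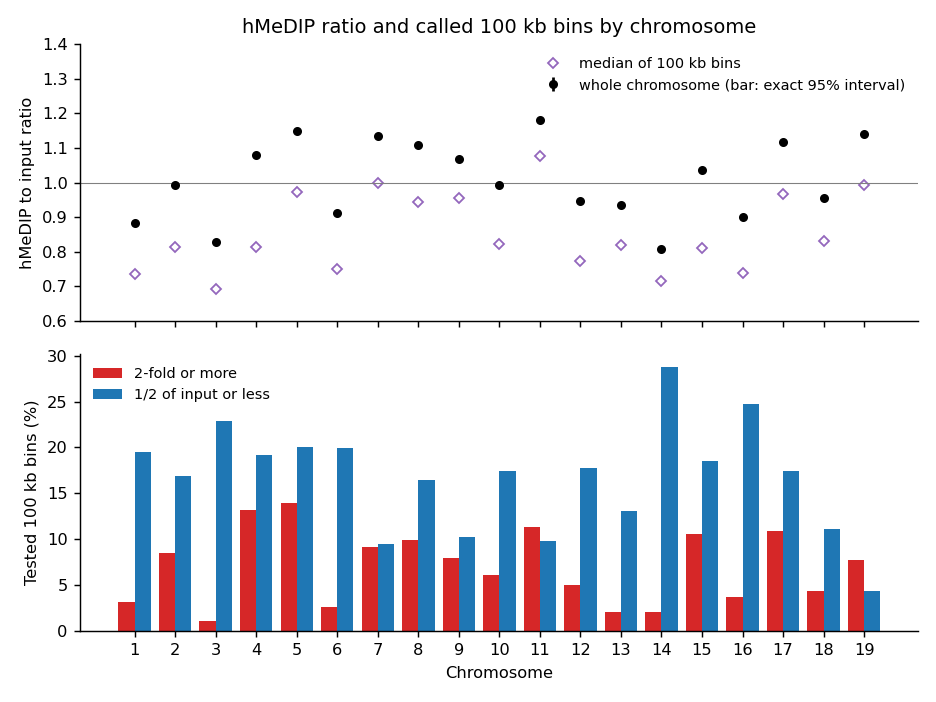
Upper panel: ratio of hMeDIP to input over each whole autosome (black, exact 95% interval smaller than the symbol) and the median of its tested 100 kb bins (open diamonds), where the line marks the input level. Lower panel: share of tested 100 kb bins (%) at 2-fold or more and at 0.5-fold or less. Chromosome 11 is highest at 1.18-fold and chromosome 14 lowest at 0.808-fold, and chromosomes 4 and 5 have large shares of both high and low bins.

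Along chromosomes, the signal was higher near the distal end, the end away from the centromere in these acrocentric chromosomes. When each chromosome was divided into 10 equal parts, the median ratio of 100 kb bins was 0.722 in the first part, 1.11 in the ninth and 1.31 in the last. High bins made up 2.38% of the first part and 19.8% of the last. Median input, pooled over the chromosomes, was 652 to 689 reads in every part. It was not split by chromosome, and whether input coverage has a share in the change was not tested. The last part was above the first on 16 of 19 chromosomes and was the highest of all on 9. No MeDIP value was set beside these parts, so whether the change is particular to hMeDIP was not tested.

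As a ratio of last to first part the change was largest on chromosome 5, from a median of 0.5600 to 1.75 (3.13-fold). Chromosome 4 went from 0.693 to 2.11 (3.04-fold), and chromosome 9 from 0.567 to 1.48 (2.61-fold). Chromosomes 14, 17 and 18 ran the other way, chromosome 17 from 1.11 to 0.546. The last part was below input on these 3 and on chromosomes 3 and 13.

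Bins near each other had like ratios. Pearson's r of the log2 ratio between 100 kb bins was 0.828 for neighbours (23128 pairs), 0.554 at 1 Mb, 0.211 at 5 Mb and -0.01 at 50 Mb. At 10 kb it was 0.626 between neighbours and 0.502 at 100 kb, and at 1 kb it was 0.330 between neighbours. These values describe bins of the same 2 libraries, and r at small bins is lowered by counting error, so curves for different bin sizes cannot be set against each other.

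Steps between neighbouring 100 kb bins were mostly small, with a median of 1.21-fold, but 865 of 23127 (3.74%) were 2-fold or more and 11 were 4-fold or more. The largest outside the near-empty bins was at 84800000 on chromosome 11, where the ratio dropped from 1.91 (1385 against 648 reads) to 0.355 (350 against 903 reads). At 17000000 on chromosome 12 it rose from 0.331 to 1.64, with 420 against 1157 reads before the step and 1073 against 586 after it. MeDIP made the same steps, from 1.73 to 0.440 and from 0.313 to 1.52. At 27500000 on chromosome 14 hMeDIP rose from 0.565 to 2.74, MeDIP from 0.454 to 1.73, and the 600 mM eluate went only from 0.439 to 0.514. The other steps among the 5 largest, on chromosomes 18 and 10, were 4.82-fold and 4.45-fold.

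How far broad signal was made of narrow peaks was then described. In 100 kb bins under 0.35-fold, 0.334% of hMeDIP reads lay in high 1 kb bins and 97.7% of the 100 kb bins had none. In those at 3-fold or more the share was 32.7%, and each had at least 1 high 1 kb bin. Both measures use the same reads, so some rise of this kind is built in. In a high 100 kb bin the median share of reads in high 1 kb bins was 23.9% (quartiles 17.8% and 30.03%). These shares depend on the call at 1 kb: over all tested bins, high 1 kb bins held 10.9% of hMeDIP reads with 0.5 RPM added, 24.3% with 0.1 RPM and 4.55% with 1 RPM.

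The extremes of that range differed in form at these settings. In chr14:27500001-27600000, 81.8% of the 2425 hMeDIP reads lay in 12 high 1 kb bins, and 3 of its 10 bins of 10 kb were high. In 5 high 100 kb bins no tested 1 kb bin reached 3-fold, but only 73 to 85 bins of 1 kb were tested in each. The added 0.5 RPM also pulls 1 kb ratios towards 1, so narrow signal in these 5 may have been missed. One of the 5, chr12:113600001-113700000, held 1234 against 469 reads (2.34-fold), with 5 of 10 bins of 10 kb high. The median ratio of its 77 tested 1 kb bins was 1.26. High 1 kb bins inside low 100 kb bins were few, 230 (0.622% of high 1 kb bins). The highest of them, chr16:69200001-69201000, had 140 hMeDIP against 6 input reads (9.47-fold) within a 100 kb bin at 0.499-fold, and MeDIP was 7.09-fold there.

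At these settings most high 1 kb bins stood alone. Of 33210 runs of high 1 kb bins, 90.1% were 1 bin long, and the longest held 7. Bins with too few input reads to be tested break a run. One such bin, chr14:27563001-27564000, stood between high bins with 50 hMeDIP reads against 2 input reads (5.23-fold). The number of high 1 kb bins also depends on the RPM added, so run lengths depend on these settings. Of the high bins, 21278 (57.5%) had no other high bin among the 5 bins on either side. The averaged read profile over these isolated bins, each centred on its own median read, rose from 0.0589 RPM per 100 bp in the flanks, beyond 4 kb, to 0.651 at the peak. A central peak is built in, since the bins were chosen as high and isolated and were centred on the same reads. The width of the profile at the midpoint of its height was 400 bp. For comparison, the commonest distance between the outer ends of plus-strand and minus-strand reads, a measure of fragment length, was 150 bp in hMeDIP.

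**Figure D4:**
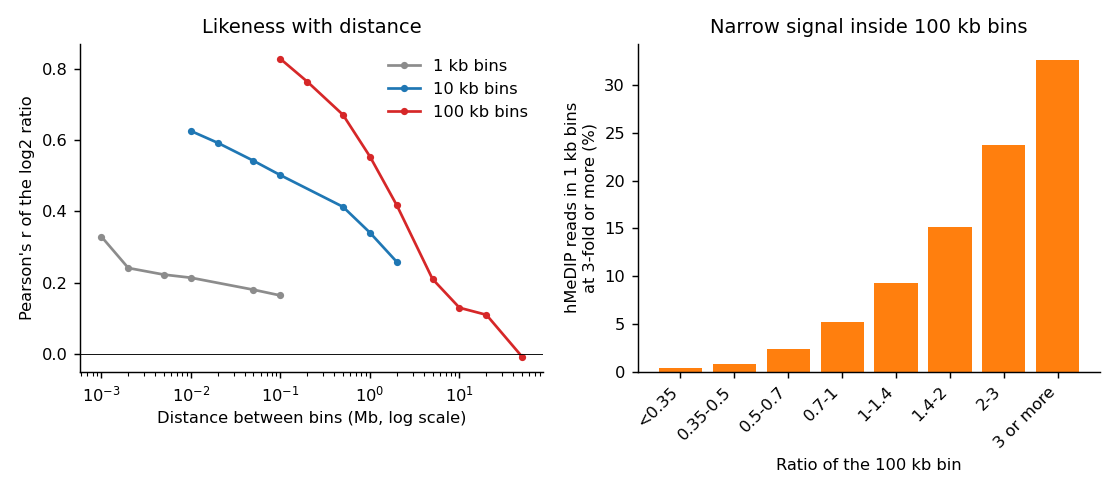
Left: Pearson's r of the log2 hMeDIP ratio between bins at increasing distance (Mb, log scale), for 3 bin sizes. Right: share of hMeDIP reads (%) that lay in 1 kb bins at 3-fold or more, by the ratio class of the 100 kb bin around them. Likeness between 100 kb bins fell from 0.828 for neighbours to about 0 at 50 Mb, and the share in high 1 kb bins rose from 0.334% to 32.7%.

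At 10 kb, 1 bin stood apart from all others. In chr14:27560001-27570000 there were 1531 hMeDIP reads against 46 input reads (25.6-fold, 22.3 to 41.1), whereas the second highest, chr4:129880001-129890000, had 672 against 39 (13.0-fold, 11.2 to 22.0). The third was chr5:36610001-36620000 with 598 against 38 (11.8-fold), and the 10th was at 10.0-fold. Of the 10 highest, 2 had at least 5 input reads per kb and remained when that many were required.

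The block around the highest bin covered 13 kb with sharp edges, chr14:27559001-27572000. It held 1975 hMeDIP against 64 input reads (27.8-fold, 21.6 to 36.2), and its 13 bins of 1 kb held 6 to 246 hMeDIP reads each, 11 of them high. The 25 bins around it held a median of 3 hMeDIP reads and at most 65. The bin with 65, chr14:27550001-27551000, was itself high (65 against 7 reads, 4.39-fold), and 60 of its reads lay on the minus strand. MeDIP had 561 reads in the block (14.0-fold, 10.8 to 18.4), but the 600 mM eluate had 48 (1.29-fold, 0.866 to 1.90) and the 800 mM eluate 25 (0.936-fold, 0.565 to 1.51). Both antibody libraries were thus far above input, while the intervals of the eluates included the input level.

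Of the 1975 hMeDIP reads in the block, 1928 lay on the minus strand and 47 on the plus strand. Over the whole library 50.01% of reads were on the minus strand. This led to a count of strand in all high bins, which was chosen after these values were seen. A bin was called one-stranded where at least 20 reads lay in it and 90% or more of them had the same strand. Among all tested 1 kb bins with at least 20 hMeDIP reads, 34097 of 207324, or 16.4%, were one-stranded. Among the 36996 high bins 7899 were, or 21.4%, with 3947 on the plus and 3952 on the minus strand. Among the tested bins that were not high, 26198 of 170328 (15.4%) were one-stranded, so the pattern was not confined to high bins. In neither library did any position and strand hold more than 1 read, so the reads of such a bin start at different positions.

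The input showed hardly any such bin, with 2 of 21012 (0.00952%). That count is over all tested bins with at least 20 input reads, since only 25 high bins had that many and none of those was one-stranded. In MeDIP 12802 of 60330 tested bins (21.2%) were one-stranded, and 28.6% of the 16652 that were high in hMeDIP. In the 600 mM eluate it was 471 of 71356 tested bins (0.66%) and 28 of 11908 high ones (0.235%). In the 800 mM eluate it was 38 of 43024 (0.0883%) and 1 of 7096. The minus-strand share of hMeDIP reads over high bins had an SD of 0.295 where counting error around equal strands gives 0.0725. One-stranded bins were thus common in both libraries made with an antibody from denatured DNA and rare in the eluates and in the input, and the cause was not tested.

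The share of one-stranded bins rose with the ratio. It was 17.7% of high bins at 3-fold to 4-fold, 31.6% at 5-fold to 7-fold, 60.996% at 10-fold to 15-fold and 24 of 28 bins at 15-fold or more. MeDIP rose over the same classes from 25.02% to 78.6%, although its strand took no part in choosing them. Among high bins with at least 50 hMeDIP reads the share was 25.1% (4218 bins). One-stranded high bins held 2.63% of all hMeDIP reads.

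The strand was shared between the antibodies bin by bin. Of the 6724 one-stranded high bins with at least 10 MeDIP reads, 6694 (99.6%) had their MeDIP majority on the same strand as hMeDIP. For the 600 mM eluate it was 1554 of 2848 (54.6%, with 244 ties). For the 800 mM eluate it was 805 of 1633 (49.3%, with 178 ties) and for the input 335 of 690 (48.6%, with 95 ties). Ties stayed in these totals but never counted as the same strand, which lowers the shares. Among the bins without a tie, the hMeDIP strand was the commoner one in both eluates and in the input. One-stranded high bins also differed in the eluates: their median ratio was 1.38 at 600 mM against 2.47 in the other high bins, whereas in MeDIP it was 3.16 against 2.55.

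One-stranded high bins were local. Where both 1 kb bins of an adjacent pair were high and one-stranded, 217 of 241 pairs had the same strand, and at 100 kb distance 23 of 52 did. At 10 kb only 67 of 21077 high bins were one-stranded, or 0.318%, beside 0.207% of all tested bins of that size. Stretches of adjacent 1 kb bins were drawn by a looser rule than the counts above. Their bins did not have to be high and could hold fewer than 20 reads. The longest stretch by that rule covered 18 kb at chr2:116371001-116389000, with 588 plus-strand and 22 minus-strand hMeDIP reads against 69 input reads (7.95-fold). MeDIP had 72 and 4 reads there, and the 600 mM eluate 12 and 22.

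Of the 10 highest 1 kb bins, 9 were one-stranded, and in the remaining one 86.6% of reads were on the plus strand. The highest, chr11:116607001-116608000, held 291 hMeDIP reads (21 plus, 270 minus) against 5 input reads, which gave 20.5-fold with 0.5 RPM added, 39.7-fold with 0.1 RPM and 13.04-fold with 1 RPM, and a raw interval of 22.2 to 162.5. In chr4:62965001-62966000 there were 264 reads (12 plus, 252 minus) against 4. At chr5:36614001-36615000, 291 of 292 reads were on the plus strand, against 6 input reads, and MeDIP had 45 plus and 2 minus.

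MeDIP had its majority on the same strand in all 10 bins. The 600 mM eluate was not lopsided in the bins where it had reads to show it, with 47 plus and 55 minus in the chromosome 11 bin. These 1 kb folds rest on 3 to 6 input reads each, and 4 of the 10 bins remained among the 10 highest when 5 input reads were required.

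**Figure D5:**
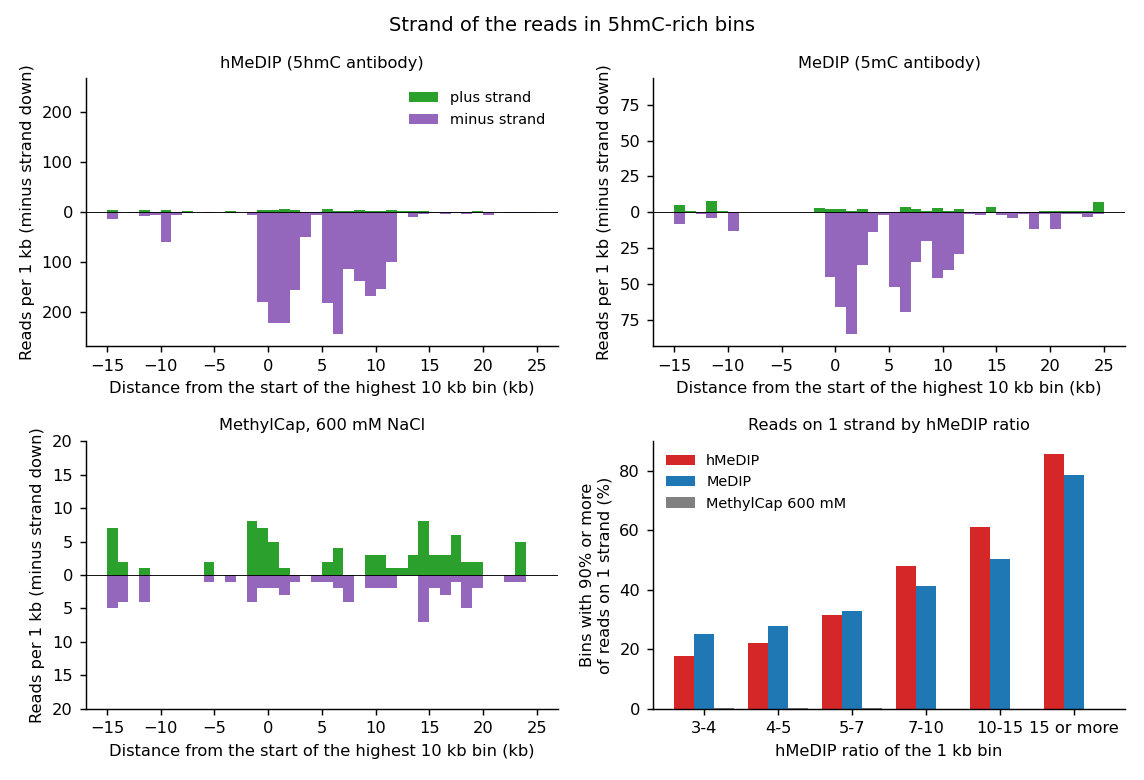
Reads per 1 kb by strand in hMeDIP, MeDIP and the 600 mM MethylCap eluate around the highest 10 kb bin, with distance from its start (kb) on the horizontal axis, plus-strand reads upwards, minus-strand reads downwards, and a different vertical scale per panel. Lower right: share (%) of high 1 kb bins with 90% or more of reads on 1 strand, by hMeDIP ratio class, among bins with at least 20 reads of the library. In the block 1928 of 1975 hMeDIP reads are on the minus strand and MeDIP has the same form, while the eluate has reads on both strands.

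The lowest 10 kb bins were scattered. At chr3:73440001-73450000 hMeDIP had 5 reads against 104 in the input (0.113-fold, raw interval 0.0138 to 0.104), with MeDIP at 0.130-fold. A bin of the near-empty stretch of chromosome 4 came second. The next, outside it, were chr5:59990001-60000000 with 5 against 101 reads (0.116-fold), chr1:52270001-52280000 with 15 against 169 (0.122-fold) and chr3:66990001-67000000 with 10 against 132 (0.122-fold). MeDIP was 0.191-fold, 0.217-fold and 0.263-fold in these 3, and the 600 mM eluate 0.122-fold, 0.114-fold and 0.168-fold. The 4 enriched libraries together stood at 0.0614, 0.110 and 0.111 of input there, and at 0.0386 in chr3:73440001-73450000. These values are under the 0.15 that marked near-empty bins, a cut applied at 100 kb only. These 10 kb bins are therefore likewise not given as low in 5hmC.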

How the data were processed

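The deposited files list 1 aligned 35 bp read per line, that is, a read count of 1 per line by the authors, with position and strand. The alignment used BWA 0.5.8 and the build mm9 according to what is listed per the submitters' processing notes. Column 4 as deposited, which holds 0 or 1, has a meaning not given in the sources used here, and the ratio in every bin used reads with 0 in both libraries. No position and strand occurred in more than 1 read of either library, which caps dense signal.

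From these counts, read midpoints were binned and scaled to the reads on chromosomes 1 to 19, with Python 3.11.15, numpy 2.4.6, scipy 1.17.1, pandas 2.3.3 and matplotlib 3.10.9. Named bins were the 10 highest and 10 lowest at 100 kb, the 10 highest and 5 lowest at 10 kb, the 10 highest at 1 kb (high bins with at least 20 hMeDIP reads), each chromosome's extremes, the 5 longest runs and the 5 largest steps. Other values were chosen after they were seen where the text says so, and the near-empty bins were defined after seeing them. The comparison and its thresholds were chosen with earlier results of these data known. Alternatives were all input reads, other pseudocounts, input minimums, thresholds, bin offsets, read shifts and scaling. No sequence is shown, since no mm9 genome was used here.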

Additional observations from a re-analysis of the deposited data

Results flagged for a closer look

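Reads outside chromosomes 1 to 19 took no part in the comparison. On chromosome Y, hMeDIP had 3543 reads against 22 input reads, 145-fold (interval 95.5 to 231.5), and 38.7-fold when all input reads were used. On unplaced sequence it had 31621 against 20445 reads, 1.39-fold (1.37 to 1.42), and 1.11-fold with all input reads. Both were above the input level and are shown for that reason, with 1 library per side and lines that differ. Their cause was not tested. Chromosome X, at 0.419-fold, and mitochondrial reads, at 0.433-fold, were below input.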

How the results depend on the processing

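Of 86 alternative counts of bins and runs, 63 were within 1.5 times the reported count, and of 420 alternative ratios of named bins 408 moved by no more, as a fold, than the bounds of the raw interval lie from the raw ratio, and 0 changed side. Those intervals are wide at 1 kb, and the named bins are extremes of this same ratio, so a change of side was hardly possible. Counts at 1 kb depended most on the settings. High 1 kb bins numbered 22997 with at least 5 input reads per kb, 70367 with the median ratio set to 1, 126850 and 10731 with 0.1 and 1 RPM added, and 5326 with stricter thresholds. Low 1 kb bins numbered 291 with the input density of the 10 kb around them, 1009 with the median set to 1, 409668 and 25 with 0.1 and 1 RPM added, and 11 with stricter thresholds. At 10 kb the median setting gave 34201 high and 25359 low bins and stricter thresholds 5375 and 11022, and at 100 kb they gave 3057 and 1577, and 194 and 261. Runs of high 100 kb bins numbered 1236 and 130 under these settings, and runs of low bins 989 and 203, or 936 when a gap of 1 bin was bridged. The longest high and low runs had 50 and 38 bins with the median set to 1, and 7 and 6 with stricter thresholds. The share of hMeDIP reads in high bins ranged over these alternatives from 2.64% to 24.3% at 1 kb, 7.39% to 33.4% at 10 kb and 2.21% to 26.5% at 100 kb. One-stranded high 1 kb bins numbered 4218 with at least 50 reads, 16338 (44.2%) at 80% or more on 1 strand, and 2730 (10.3%) in 2 kb bins. Chromosome 10 turned from below to above input (1.01-fold) with all input reads. No paired analysis was possible because there was 1 library per group. Depth limits low calls at 1 kb, as the report states.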
